A study of Danio rerio with 6 samples.

Results

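The long-chain acyl-CoA synthetases of the zebrafish (*acsl* genes) were examined in the trimmed mid-sections of *dgat2* mutant and wild-type sibling embryos. The family was taken as 9 gene symbols, and members were found by name in the deposited table of 32520 genes. There were 7 members with a row under their own name: *acsl1a*, *acsl1b*, *acsl3a*, *acsl3b*, *acsl4a*, *acsl4b* and *acsl5*. *acsl2* has a row under its Ensembl identifier only (ENSDARG00000078399), and a gene name table paired that identifier with the symbol. No row was matched to *acsl6*, which was not analysed here. All 8 matched members had enough counts to be tested, among 22762 genes tested in all.

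These enzymes join a long-chain fatty acid to coenzyme A. The resulting acyl-CoA is the activated form that acyltransferases such as Dgat2 use to build triacylglycerol, and that mitochondria use for β-oxidation. In mammals, ACSL1 is prominent in liver, heart and adipose tissue, ACSL3 sits on the ER and on forming lipid droplets, ACSL4 prefers arachidonic acid and similar polyunsaturated fatty acids, and ACSL5 is abundant in the intestinal epithelium. Zebrafish have paired a and b copies of several of these genes.

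The mutant group consisted of homozygous dgat2sa13945/sa13945 embryos, compared with their wild-type siblings, both at 3 days post fertilization (dpf). Parents heterozygous for the allele were in-crossed, embryos of 3 clutches (numbered 2, 3 and 4) were sorted by yolk opacity and genotyped, and 1 pool of 6 mid-sections per genotype was sequenced from each clutch. The allele is a chemically induced nonsense mutation, so mutants can carry other induced variants linked to it. The study found no loss of the *dgat2* transcript in these mutants and proposes that the allele may not be a full null. Heads and tails had been cut away, leaving the yolk sac with its yolk syncytial layer (YSL) and the trunk. Each value therefore describes a mixture of tissues, in which fewer cells of a type and less RNA per cell cannot be told apart.

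The libraries held 52476194 to 59166585 estimated counts in mutants and 45958694 to 49918655 in wild-type siblings, so every mutant library was the deeper. Skeletal muscle markers (9 of 9 found) summed to 95074 to 106036 CPM (counts scaled to a common library size) in mutants and 98702 to 112599 CPM in wild types. Markers of the YSL and lipoprotein secretion (8 of 8 found) summed to 11434 to 14930 CPM in mutants and 9025 to 16921 CPM in wild types. Transcripts of both lists were thus present, but liver and intestine also secrete lipoproteins, so the second list is not particular to the YSL. Lens and retina markers (4 of 4 found) summed to at most 1.16 CPM in mutants and 1.48 CPM in wild types. In the gene table of the assembly GRCz12tu, none of the 8 matched members was on the chromosome that carries *dgat2*.

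Levels were compared between members in TPM, a transcript's share of all transcripts in a library, which are scaled for transcript length. In wild-type siblings, 5 members made up most of the family's transcripts. *acsl1b* was highest at 17.2 ± 0.651 TPM (SD, n = 3 pools), followed by *acsl5* at 13.1 ± 5.18, *acsl4a* at 12.3 ± 2.96, *acsl1a* at 12.1 ± 1.27 and *acsl3b* at 9.09 ± 0.191. *acsl4b* (3.05 ± 0.122 TPM), *acsl2* (1.33 ± 0.0229) and *acsl3a* (0.788 ± 0.287) were far lower. The wild-type ranges of *acsl1b* and *acsl5*, of *acsl5* and *acsl4a*, and of *acsl4a* and *acsl1a* overlapped, so these neighbours in the order did not differ beyond their spread, although every *acsl1b* value was above every *acsl4a* and *acsl1a* value. From *acsl1a* downward, each member was above the next in every wild-type pool.

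In mutants the mean order was *acsl5* at 21.8 ± 5.66 TPM, *acsl1b* at 18.2 ± 4.68, *acsl4a* at 17.5 ± 1.34, *acsl1a* at 12.6 ± 0.628 and *acsl3b* at 9.94 ± 0.563 (SD, n = 3). The mutant ranges of *acsl5* and *acsl1b*, and of *acsl1b* and *acsl4a*, overlapped. Those of *acsl4a* and *acsl1a* did not, and *acsl4a* was above *acsl1a* in all 3 mutant pools, as it was in 2 of 3 wild-type pools. *acsl4b* followed at 2.97 ± 0.362 TPM, *acsl2* at 1.03 ± 0.128 and *acsl3a* at 0.597 ± 0.108. By mean TPM over all 6 libraries, *acsl1b* was above 84.1% and *acsl3a* above 16.8% of the genes tested.

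**Figure D1:**
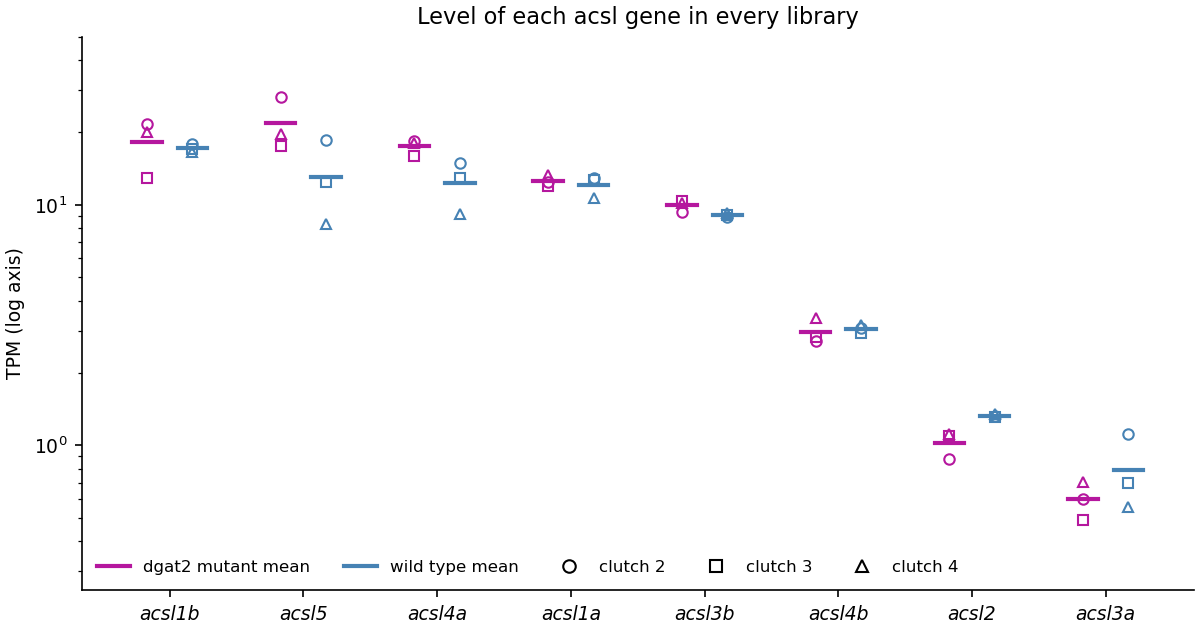
TPM (log axis) of each *acsl* gene in every library, with *dgat2* mutants to the left of wild-type siblings; symbols are the 3 clutches and bars are means of 3 pools. *acsl1b*, *acsl5*, *acsl4a*, *acsl1a* and *acsl3b* lie near or above 9 TPM on average in wild types, whereas the mean of *acsl3a* lies below 1 TPM.

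In each pair of gene copies the same copy was the higher in all 6 libraries, by very different margins. *acsl3b* exceeded *acsl3a* by 15.5, 21.2 and 14.5 times in the TPM of mutants from clutches 2, 3 and 4, and by 8.03, 13.0 and 16.7 times in their wild-type siblings. The ranges of that ratio overlapped between genotypes. *acsl1b* exceeded *acsl1a* by 1.74, 1.07 and 1.52 times in mutants and by 1.38, 1.34 and 1.56 times in wild types, again with overlap. *acsl4a* exceeded *acsl4b* by 6.82, 5.68 and 5.32 times in mutants and by 4.88, 4.42 and 2.89 times in wild types. This ratio was higher in every mutant pool than in any wild-type pool. The estimated counts of *acsl1b* and *acsl4b* were fractional (over 0.0005 from a whole number) in 6 of 6 libraries, those of *acsl2* and *acsl3b* in 2, those of *acsl1a* and *acsl5* in 1, and those of *acsl3a* and *acsl4a* in 0. Salmon gives such counts for a gene where a read is divided with a transcript of another gene that it matches. *acsl4a* showed no such division, and which genes shared reads with *acsl4b* and *acsl1b* cannot be told from these counts.

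Genotypes were compared with edgeR's quasi-likelihood test on rounded counts, adjusted by Benjamini-Hochberg over all genes tested. *acsl5* and *acsl4a* were the members with the largest positive log2 fold changes, and *acsl2* had the most negative one. No member passed an adjusted p of 0.05 (0 of 8) with genotype as the only term, under which 0.0132% of all tested genes did. At an unadjusted p under 0.05, 2 members were higher in mutants, against 3.21% of all genes, and 0 were lower, against 1.99%. The median log2 fold change was 0.07 over the members, of which 5 were above 0 and 3 below, and -0.01 over all genes tested.

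Sibling pools of a clutch varied together, so the clutch was also fitted as a block. Then 1 member, *acsl5*, was higher at an adjusted p under 0.05, as were 0.272% of all genes, and 0 members were lower, against 0.0659%. At an unadjusted p under 0.05 with the block, 2 members were higher (5.14% of all genes) and 1 was lower (3.05%). In normalised CPM, 2 members were higher in all 3 mutant pools than in any wild-type pool, as were 5.14% of all genes. For 1 member, *acsl2*, all mutant pools were lower, as for 4.65% of all genes. DESeq2 called 0 members without the block, where it called 0.461% of all genes higher. With the block it called 2 members, *acsl5* and *acsl4a*, both higher, against 1.18% of all genes.

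**Figure D2:**
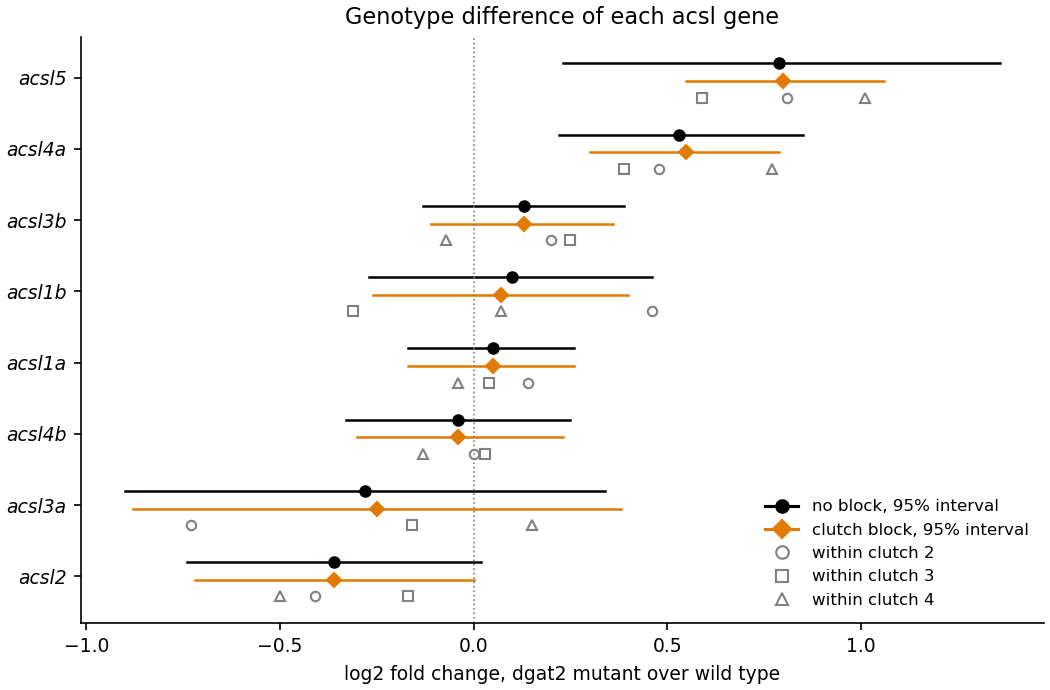
Log2 fold change of each *acsl* gene, *dgat2* mutant over wild type, from edgeR without a block (black) and with the clutch as a block (orange), with 95% confidence intervals, and the log2 difference of CPM within each clutch (grey). *acsl5* and *acsl4a* lie above 0 in both fits and in all 3 clutches, and *acsl2* lies below 0 in all 3 clutches.

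*acsl5* is, in mammals, the family member most abundant in the intestinal epithelium, where absorbed fatty acids are made into triacylglycerol. It had 5592, 3645 and 4060 estimated counts in mutant pools from clutches 2, 3 and 4, and 2825, 2301 and 1545 in their wild-type siblings. Scaled for library size, this was 106, 69.3 and 65.7 CPM in mutants and 60.2, 46.1 and 32.6 CPM in wild types. Every mutant pool was above every wild-type pool in CPM, with clutch 2 highest in both genotypes.

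The log2 fold change of *acsl5* was 0.79 (SE 0.25; 95% CI 0.23 to 1.36; edgeR adjusted p = 0.784), where SE is the standard error and CI the confidence interval. Blocked by clutch, it was 0.80 (SE 0.11; 95% CI 0.55 to 1.06), and the adjusted p was 0.0411 by edgeR and 4.57e-07 by DESeq2. The difference within clutches 2, 3 and 4 was 0.81, 0.59 and 1.01 on the log2 scale. The exact two-sided permutation test gave p = 0.1, the smallest value that this design allows. The call with the block was lost when either pool of clutch 2 was left out. The adjusted p by edgeR was then 0.116 without the mutant pool and 0.115 without the wild-type pool, at an unchanged log2 fold change of 0.80. With the block, a clutch left with 1 pool does not bear on the genotype difference, so both fits rest on clutches 3 and 4. Without a pool of clutch 3 or 4 the adjusted p by edgeR was 0.0276 to 0.0478. On the TPM scale *acsl5* was at 28.2, 17.5 and 19.7 in mutants and 18.6, 12.4 and 8.31 in wild types, so there the wild-type pool of clutch 2 overlapped with the mutants. TPM of all tested genes shifted by a median of -0.17, -0.08 and 0.19 (log2, mutant minus wild type) in clutches 2, 3 and 4. Over all pools together the median was -0.02 in TPM, by limma over the 17965 genes that passed its level filter. It was -0.01 in the edgeR fit over all tested genes.

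Summed levels of markers of other tissues differed between some of the same pools. Hepatocyte markers summed to 2471, 2241 and 2531 CPM in mutants and to 3155, 3058 and 1675 CPM in wild types of clutches 2, 3 and 4. The largest part of these sums was *tfa*, at a mean of 1344 CPM in mutants and 1707 CPM in wild types. YSL markers summed to 13907, 14930 and 11434 CPM in mutants and to 16402, 16921 and 9025 CPM in wild types. Neuron markers summed to 705, 844 and 809 CPM in mutants and to 749, 785 and 1172 CPM in wild types. All of these ranges of sums overlapped, as did those of erythrocyte markers. With the block edgeR called 0 YSL and 0 hepatocyte markers. At an unadjusted p under 0.05, 2 of 8 YSL and 2 of 7 hepatocyte markers were then higher, against 5.14% of all genes. In both lists 0 were lower, against 3.05%. Without the block, 4 of the 8 YSL markers had a log2 fold change above 0 and 4 below (median -0.05). Of the 7 hepatocyte markers, 6 were above 0 and 1, *tfa*, was below (median 0.13). With the block *mttp* (YSL list) was at 0.59 and *fabp10a* (hepatocyte list) at 0.61. Their adjusted p was 0.161 and 0.126 by edgeR, and 0.00183 and 0.000544 by DESeq2, which called 1.18% of all genes higher. DESeq2 with the block also called *apoeb* of the YSL list higher (adjusted p = 0.0210). The intestinal markers (4 of 4 found, none at 0) summed to 1340, 520 and 917 CPM in mutants and to 676, 489 and 583 CPM in wild-type siblings of clutches 2, 3 and 4. The ranges overlapped, and mutants were higher within each clutch. Among them *fabp6*, an ileal bile acid binding protein, had a log2 fold change of 1.69 with the block (adjusted p = 0.00860 by edgeR) and 1.72 without it (adjusted p = 0.484). By edgeR with the block *fabp6* was the only 1 of the 4 called, beside 0.272% of all genes called higher. *fabp2*, an intestinal fatty acid binding protein, was then at 0.52 (adjusted p = 0.416 by edgeR). DESeq2 with the block called *fabp6* (adjusted p = 2.38e-21) and *vil1* (0.0123) higher, against 1.18% of all genes. It did not call *fabp2* (0.0605) or *cdx1b* (0.485). Pancreatic acinar markers (8 of 9 found, none at 0) summed to 1038, 156 and 444 CPM in mutants and to 659, 131 and 133 CPM in wild types, with overlapping ranges. Of these, edgeR called 1 of 8 with the block, *ela2l*, which encodes an elastase. Its adjusted p by edgeR was 0.0378 with the block and 1 without it. DESeq2 with the block called *ela2l* (adjusted p = 0.00962) and *ela2* (0.0194) higher. Epidermal markers (4 of 4 found, none at 0) summed to 9622 to 11626 CPM in mutants and 12403 to 14167 CPM in wild types, without overlap. Macrophage and neutrophil markers (4 of 4 found, none at 0) summed to 33.8 to 42.1 CPM in mutants and 43.2 to 45.0 CPM in wild types, but 2 of them had a log2 fold change above 0 and 2 below. *lyz*, a lysozyme gene, was at -0.48 and *mpeg1.1*, a macrophage gene, at 0.57. Without the block edgeR called 0 genes of the intestinal, pancreatic acinar, epidermal, and macrophage and neutrophil lists. At an unadjusted p under 0.05, 1 was higher, against 3.21% of all genes, and 3 were lower, against 1.99%. With the block, 4 of 4 intestinal and 7 of 8 pancreatic acinar markers were higher at an unadjusted p under 0.05. All 4 epidermal markers were lower, and 1 macrophage and neutrophil marker was higher and 1 lower. Over all genes the shares with the block were 5.14% higher and 3.05% lower. The part of these tissues and of library depth in the *acsl5*, *acsl4a* and *acsl2* values was not tested.

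*acsl4a*, a copy of the gene that in mammals prefers polyunsaturated fatty acids, had 4276, 3845 and 4359 estimated counts in mutant pools from clutches 2, 3 and 4, and 2710, 2780 and 1967 in their wild-type siblings. This was 80.7, 73.1 and 70.6 CPM in mutants and 57.7, 55.7 and 41.5 CPM in wild types. All mutant pools were above all wild-type pools, in TPM as well (18.5, 16.0 and 18.0 in mutants, and 15.0, 12.9 and 9.13 in wild types).

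The log2 fold change of *acsl4a* was 0.53 (SE 0.14; 95% CI 0.22 to 0.85; edgeR adjusted p = 0.526). Blocked by clutch, it was 0.55 (SE 0.11; 95% CI 0.30 to 0.79), and the adjusted p was 0.122 by edgeR and 0.00304 by DESeq2, so the call depended on the tool. Within clutches it was 0.48, 0.39 and 0.77. The exact two-sided permutation p was 0.1. Its other copy, *acsl4b*, was at 12.2 ± 0.731 CPM in mutants and 12.6 ± 1.35 CPM in wild types (SD, n = 3), with a log2 fold change of -0.04 (95% CI -0.33 to 0.25).

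*acsl2* was the member with the lowest fold change. It had 211, 273 and 279 estimated counts in mutant pools from clutches 2, 3 and 4, and 249, 292 and 302 in their wild-type siblings, or 3.98, 5.19 and 4.52 CPM in mutants and 5.31, 5.85 and 6.38 CPM in wild types. The mutant pools lay below the wild-type pools, by a narrow margin. The log2 fold change was -0.36 (SE 0.17; 95% CI -0.74 to 0.02; edgeR adjusted p = 0.971), and within clutches it was -0.41, -0.17 and -0.50. With the block the adjusted p was 0.605 by edgeR. The difference in *acsl2* thus did not pass the threshold in either fit.

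**Figure D3:**
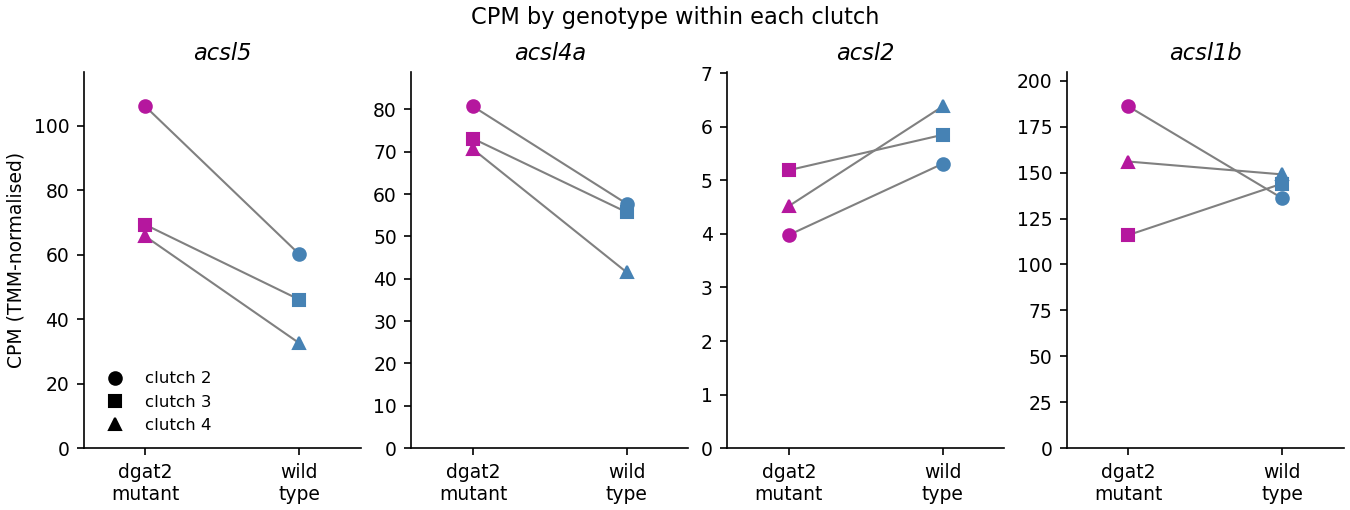
CPM (normalised with TMM factors) of *acsl5*, *acsl4a*, *acsl2* and *acsl1b*, *dgat2* mutants left of wild-type siblings, with a line joining the 2 pools of each clutch. All 3 lines fall toward wild type for *acsl5* and *acsl4a* and rise for *acsl2*, whereas those of *acsl1b* run in different directions.

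The most abundant member in wild types, *acsl1b*, varied between mutant pools. ACSL1 supplies acyl-CoA for triacylglycerol synthesis and β-oxidation in mammals. *acsl1b* was at 186, 116 and 156 CPM in mutant pools from clutches 2, 3 and 4, and at 136, 144 and 149 CPM in their wild-type siblings. The mutant pools spread to both sides of the wild-type pools. The log2 fold change was 0.10 (SE 0.16; 95% CI -0.27 to 0.46), with 0.46, -0.31 and 0.07 within clutches, 2 of them positive and 1 negative. Without the mutant pool of clutch 2 it was -0.07 and without that of clutch 3 it was 0.26.

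*acsl1a* was at 47.7 ± 2.62 CPM in mutants and 46.2 ± 2.52 CPM in wild types (SD, n = 3). Its log2 fold change was 0.05, with the narrowest 95% CI of the family, from -0.17 to 0.26. *acsl3b*, a copy of the gene linked in mammals to nascent lipid droplets, was at 55.5 ± 5.72 CPM in mutants and 50.8 ± 4.51 CPM in wild types, with a log2 fold change of 0.13 (95% CI -0.13 to 0.39). Its TPM did not overlap (9.30 to 10.4 in mutants and 8.91 to 9.29 in wild types), but its CPM did. *acsl3a* had only 77.0, 81.0 and 97.0 estimated counts in mutants and 113, 86.0 and 67.0 in wild types, and its interval was the widest, from -0.90 to 0.34 around a log2 fold change of -0.28. Without the wild-type pool of clutch 2 it was -0.04, and without that of clutch 4 it was -0.44. The adjusted p of these 3 genes and of *acsl1b* and *acsl4b* was 1 by edgeR.

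Together the 8 members summed to 490, 390 and 408 CPM in mutant pools from clutches 2, 3 and 4, against 362, 367 and 345 CPM in their wild-type siblings. No mutant sum fell in the wild-type range. Their summed TPM was 84.6 ± 10.7 in mutants and 69.0 ± 9.88 in wild types (SD, n = 3), where the lowest mutant pool at 73.1 overlapped with the highest wild-type pool at 78.8. *acsl5* made up 25.5 ± 3.83% of the sum in mutants and 18.5 ± 4.79% in wild types, and *acsl4a* 20.8 ± 1.12% in mutants and 17.7 ± 1.95% in wild types (SD, n = 3). *acsl1b* made up 21.3 ± 3.18% in mutants and 25.2 ± 2.74% in wild types. The share of *acsl4a* did not overlap between genotypes, from 19.6% to 21.8% in mutants and from 15.5% to 19.0% in wild types, and those of *acsl2* (1.24 ± 0.285% in mutants and 1.96 ± 0.308% in wild types) and *acsl3a* (0.706 ± 0.0939% in mutants and 1.12 ± 0.251% in wild types) did not overlap either, being lower in mutants. The shares of *acsl5* and *acsl1b* overlapped. Shares of a sum are tied to each other, since a higher share of 1 member lowers those of the rest. They also depend on scaling for length, as *acsl1b* transcripts were on average 4.43 times the length of the median gene and those of *acsl5* 1.93 times.

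**Figure D4:**
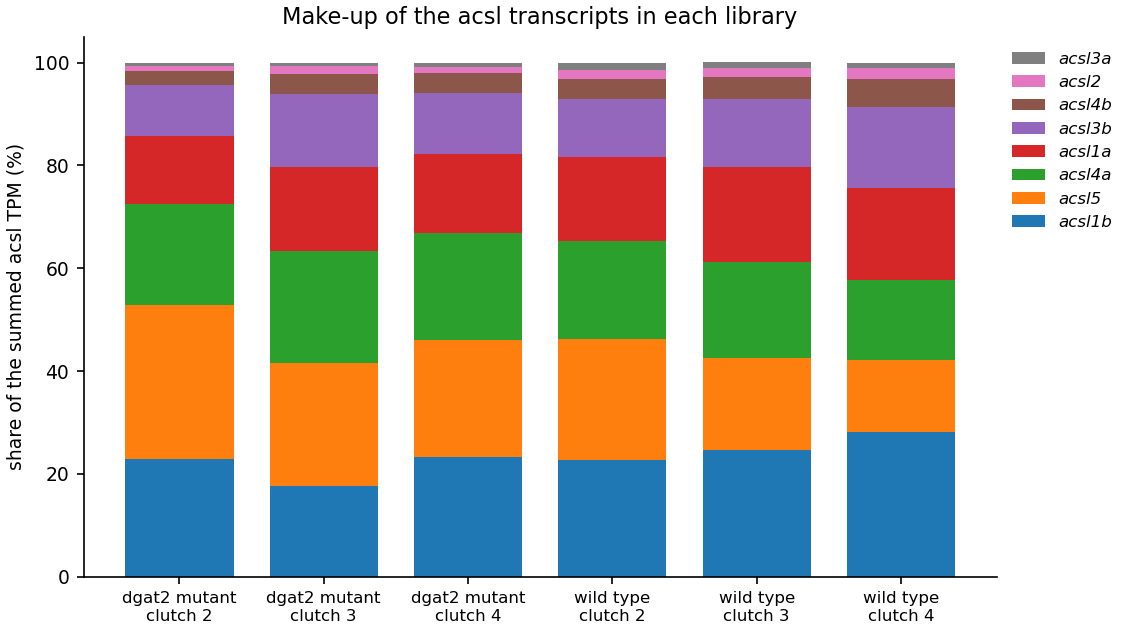
Share of the summed *acsl* TPM (%) taken by each gene, 1 bar per library, *dgat2* mutants left of wild-type siblings. *acsl5* takes 22.8% to 29.9% in mutants and 14.1% to 23.6% in wild types, and *acsl1b* takes 17.6% to 23.3% in mutants and 22.7% to 28.1% in wild types.

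Clutches were compared by an edgeR F test of the clutch term, with genotype in the model. *acsl5* stood at a log2 difference of -0.49 in clutch 3 and -0.78 in clutch 4 against clutch 2, beside 0.79 between genotypes. Its adjusted p was 0.103 by edgeR. DESeq2's likelihood ratio test gave an adjusted p of 0.000556 for *acsl5*, and called 2.75% of all genes. In edgeR 0 of 8 members were called between clutches, against 0.536% of all genes. At an unadjusted p under 0.05 there was 1 member, *acsl5*, against 12.2% of all genes. Without the mutant pool of clutch 4 the adjusted p of *acsl5* was 0.0166 by edgeR, and without any other library it was between 0.0806 and 0.350. The other members' clutch differences were smaller, with *acsl4a* at -0.10 and -0.33 and *acsl1b* at -0.30 and -0.08 for clutches 3 and 4 against clutch 2.

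The genes whose log2 CPM followed that of *acsl5* most closely over the 6 libraries, among 5297 named genes with a mean of at least 10 TPM, were *ctsf* (Pearson r = 0.999), *nsa2* (0.997) and *snd1* (0.992). *ctsf*, which encodes a cathepsin, was at 144, 134 and 132 CPM in mutants and 131, 125 and 117 CPM in wild types of clutches 2, 3 and 4. Its log2 fold change of 0.14 stood beside 0.79 for *acsl5*, so the pattern was alike but its size was smaller. For *acsl1b* the closest were *ndufa10* (0.987), *ctnnbl1* (0.986) and *gstp1.2* (0.984). None of these 6 genes passed an adjusted p of 0.05 by edgeR in either fit. The genes were picked as the highest r of 5297 candidates over only 6 libraries, and such a choice by itself yields a high r. The libraries also come as sibling pairs and share clutch and depth, so r is given as a description.

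Other genes that make, carry or use acyl-CoA were taken from lists. Of 16 other acyl-CoA synthetases found and tested, 12 had a log2 fold change above 0 and 4 below, with a median of 0.15. Without the block 0 were called by edgeR, and at an unadjusted p under 0.05, 3 were higher, against 3.21% of all genes, and 1 was lower, against 1.99%. With the block 0 were called, and at an unadjusted p under 0.05, 5 were higher, against 5.14% of all genes, and 0 were lower, against 3.05%. *slc27a2b*, of the fatty acid transport protein family that activates very-long-chain fatty acids in mammals, was at 20.7 ± 1.80 CPM in mutants and 12.7 ± 0.632 CPM in wild types (SD, n = 3). That is a log2 fold change of 0.71 (SE 0.11; edgeR adjusted p = 0.164, and 0.0705 with the block). *acsbg2*, of the bubblegum acyl-CoA synthetases, was at 99.9 ± 4.83 CPM in mutants and 74.2 ± 6.79 CPM in wild types, with a log2 fold change of 0.43 (SE 0.10; edgeR adjusted p = 0.432, and 0.164 with the block). Both were higher in every mutant pool than in any wild-type pool, as were 5.14% of all genes, but they were named for their small p. In the same list *acss2l* and *slc27a1a* were lower in every mutant pool than in any wild-type pool, as were 4.65% of all genes.

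The lists further along the pathway had medians below 0.15. That of the acyltransferases of the glycerol phosphate pathway (GPAT and AGPAT genes) was 0.12, above the 0.07 of the *acsl* members. Among 24 tested acyl-CoA thioesterases and binding proteins, the median log2 fold change was 0.03 and 0 were called by edgeR. Without the block 2 had an unadjusted p under 0.05, both higher, against 3.21% of all genes. They were *acot12* (1.85, adjusted p = 0.851 by edgeR, at only 0.523 TPM in mutants and 0.150 TPM in wild types) and *acot15* (0.29, adjusted p = 0.935 by edgeR). With the block the same 2 were higher, against 5.14% of all genes. Then *acot13* was lower at -0.35 (adjusted p = 0.459 by edgeR), against 3.05% of all genes. Of 8 tested genes of acyl-CoA transfer to mitochondria 0 passed an unadjusted p under 0.05 without the block, with a median of 0.03. With the block 1 was lower, against 3.05% of all genes. That gene was *cpt1b*, a muscle carnitine palmitoyltransferase, at -0.43 without the block (adjusted p = 1 by edgeR) and -0.46 with it (95% CI -0.72 to -0.20; adjusted p = 0.204 by edgeR and 0.0604 by DESeq2). *cpt1ab* was at -0.12 (adjusted p = 1 by edgeR). Of 9 tested acyltransferases of the glycerol phosphate pathway, 7 had a log2 fold change above 0 and 2 below. Among them 1, *agpat9l*, was higher at an unadjusted p under 0.05, against 3.21% of all genes. With the block it was again the only 1, against 5.14% of all genes. Its log2 fold change was 0.61 (SE 0.13; edgeR adjusted p = 0.357, and 0.0989 with the block). *gpat4* was at 0.12 (adjusted p = 1 by edgeR).

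DESeq2 called 3 of these pathway genes without the block, all higher: *slc27a2b* (adjusted p = 0.000240), *agpat9l* (0.0125) and *acsbg2* (0.0467), against 0.461% of all genes. With transcript length offsets it called *agpat9l* and *acsbg2*, against 0.471% of all genes, and *slc27a2b* had an adjusted p of 0.190. With the block it called the 3 genes named first and *acot12*, against 1.18% of all genes. Length also bore on *acss1*, an acetyl-CoA synthetase gene, whose DESeq2 log2 fold change was 0.42 without the offsets and 0.02 with them.

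**Figure D5:**
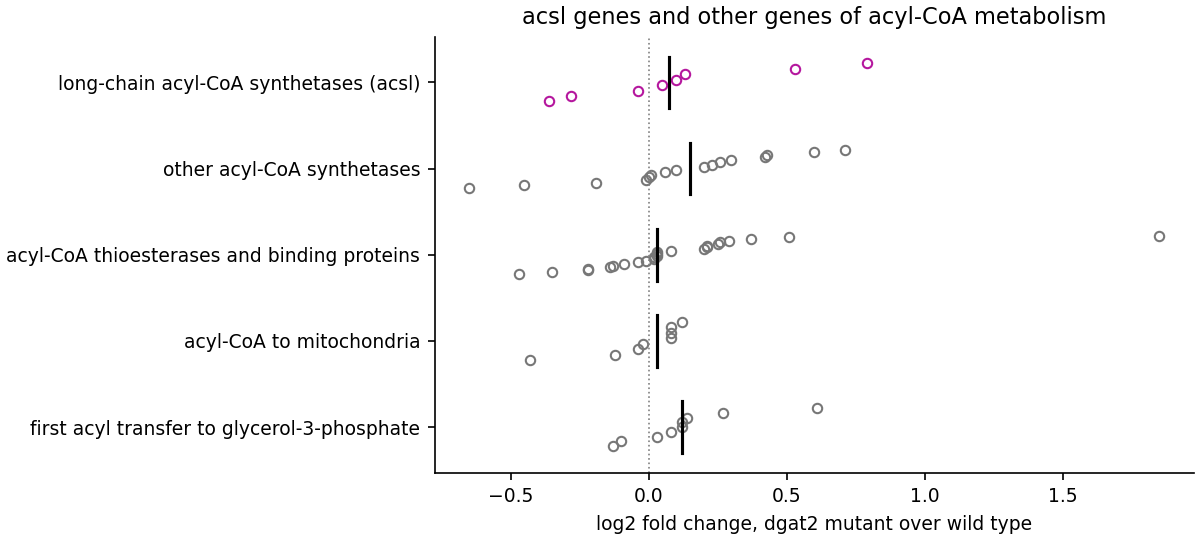
Log2 fold change (edgeR without a block), *dgat2* mutant over wild type, of each tested *acsl* gene and of the genes in 4 other lists; black bars are list medians. The medians lie between 0.03 and 0.15, and *acsl5* at 0.79 is the highest point among the *acsl* genes.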

How the data were processed

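RNA was measured in 6 poly(A)-selected libraries, 3 per genotype. Per the labels and methods, the authors mapped reads to GRCz11 with STAR 2.7.9a and quantified them with Salmon 1.10.1. They deposited a table of estimated counts per gene, which still carry library size, and a table of TPM, in which transcript length and library size are divided out. The estimated counts were rounded and tested with edgeR 4.0.16 in R 4.3.3 (TMM factors, filterByExpr, quasi-likelihood test, genotype as the only term, Benjamini-Hochberg over the 22762 genes tested). Standard errors were derived from the quasi-likelihood F statistic, and intervals are 95%. Permutation tests used scipy 1.17.1 on log2(CPM + 0.5), without pairing pools by clutch.

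Both genotypes came from the same clutches, so clutch numbers pair sibling pools. Deviations from the genotype means correlated at 0.351, 0.309 and 0.185 across genes within clutches 2, 3 and 4, and at -0.299 to 0.0311 between clutches. Since the study's methods name no covariate, the clutch block was an alternative. The others were DESeq2 1.42.0 with and without the block or transcript length offsets (from the ratio of count to TPM), other normalization factors and filters, robust dispersion, limma 3.58.1 on log2 TPM with a pseudocount of 1 or 0.1, and leaving out each library. The tests were tested on simulated data.

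The members, lists and tests were chosen with earlier results of these data known. Beside all members, the text names by rule the 2 genes of each list with the smallest p or those past the threshold, and the 3 genes most correlated with *acsl5* and *acsl1b*. *fabp6*, *fabp2*, *vil1*, *cdx1b*, *ela2*, *ela2l*, *lyz*, *mpeg1.1*, *mttp*, *apoeb*, *fabp10a*, *tfa*, *acss1*, *acss2l*, *slc27a1a* and *acot13* were named after their values were seen. Pools are separate sets of embryos, and precision is set by the spread between them. No sequences are shown, because no sequence table was used here.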

Additional observations from a re-analysis of the deposited data

How the results depend on the processing

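Under the other settings, *acsl5* kept a log2 fold change of 0.73 to 0.80 with all 6 libraries and 0.54 to 1.03 with 1 library left out, and *acsl4a* 0.49 to 0.55 and 0.40 to 0.62. Both stayed above 0 and *acsl2* stayed below 0 in all 18 alternatives. The count of members called by genotype, 0 of 8, became 1 with the replicate block in edgeR and 2 with the replicate block in DESeq2. Those were *acsl5* in edgeR, and *acsl5* and *acsl4a* in DESeq2. The count stayed at 0 in the others, limma included, although *acsl3a* fell below the level filter used for limma and was not tested there. The count of pathway genes called, 0 in edgeR, was 3 with DESeq2, 2 with transcript length offsets and 4 with the replicate block in DESeq2. The count of members called by clutch, 0 in edgeR, was 1 with DESeq2 and lay between 0 and 1 with 1 library left out. With 1 library left out, *acsl1b* ranged from -0.07 to 0.26 and *acsl4b* from -0.10 to 0.05, so their direction was not settled, and *acsl3a* ranged from -0.44 to -0.04. Without scaling for length, *acsl1b* exceeded *acsl3a* in wild types by 77.2 times in CPM, against 21.8 times in TPM, and took 39.9% of the family's counts, against 25.2% of its TPM. The count of members that did not overlap between genotypes stayed at 3 in TPM and in CPM of library totals (alternatives chosen after seeing the data), but in TPM *acsl3b* took the place of *acsl5*. The share of all genes without overlap was taken only in CPM with TMM factors, at 5.14% higher and 4.65% lower in mutants. The counts on the other scales have no such share beside them and are not read as a result. The 67.0 to 113 counts of *acsl3a* limit its precision.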

Other observations

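Over the 6 libraries, the log2 CPM of *acsl5* correlated with that of *acsl4a* at r = 0.954 and with that of *acsl2* at r = -0.944, pairs chosen after the values were seen. These points are sibling pools that share clutch and genotype, so r is a description. The transcript length behind the *acsl3a* values, recovered from the ratio of count to TPM, was 1.56 times that of the median gene in the mutant pool of clutch 3 and 1.24 to 1.29 times in the other 5 libraries. The other members' lengths differed less between libraries, as for *acsl5* at 1.90 to 1.95 times. With 81.0 counts in that pool, the mix of *acsl3a* transcripts was thinly measured.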
